A study of Mus musculus with 9 samples.

Results

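Slc9a9, Kcnj8 and AI504432 are 3 genes whose probe sets were among those with the lowest signal in NK cells from the spleen of NKDxIL15tg mice relative to NK cells from the spleen of IL15tg mice. They were chosen for that difference, and every probe set annotated to 1 of them alone was taken. This gave 7 of the 45101 probe sets on the array, 4 for Slc9a9, 1 for Kcnj8 and 2 for AI504432. The samples were NK cells purified by fluorescence-activated sorting and profiled on 9 Affymetrix mouse arrays, with 3 arrays labelled as biological replicates in each of 3 groups. The series calls the NK cells of IL15tg mice mature and those of NKDxIL15tg mice immature. The first group was IL15tg spleen, the second NKDxIL15tg spleen and the third NKDxIL15tg bone marrow. All 3 groups carried the IL15 transgene, and the NKD allele was present in the last 2 only. NKD is a transgenic line in which insertion of the transgene at the Atf2 locus has been reported together with arrested NK cell development. The promoter of either transgene, the age of the mice, the sorting gate and any pooling of mice are not given in the sources used here. No IL15tg bone marrow group was among the samples, so mature cells were represented by spleen alone. Labelled cRNA was made from 150 ng of total RNA with a kit that amplifies from the 3′ end in repeated cycles.

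Slc9a9 encodes NHE9, a sodium/proton exchanger of endosomal membranes that moves protons out of the endosome in exchange for sodium or potassium and so counteracts the proton pump, the V-ATPase. Kcnj8 encodes Kir6.1, a pore-forming subunit of ATP-sensitive potassium channels, which assemble from an inward rectifier pore and a sulfonylurea receptor and couple the membrane potential to the energy state of the cell. Kcnj8 is best known from vascular smooth muscle and pericytes, where its partner is the sulfonylurea receptor SUR2, encoded by Abcc9. AI504432 is annotated as a long non-coding RNA. NK cells are lymphocytes that kill target cells and secrete cytokines, they depend on IL15, and their maturation runs from bone marrow to spleen.

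Promoter sequences were matched by symbol for 2 of the 3 genes, Slc9a9 and Kcnj8, and are shown because these genes were low together in the same arrays. Each is the 250 bases upstream of the annotated start in RefSeq on GRCm38.p6, written 5′ to 3′ on the strand of the gene. Slc9a9 lies at chr9:94669642-94669891 on the plus strand and Kcnj8 at chr6:142571615-142571864 on the minus strand. Capitals mark any match, on either strand, to the motifs named in the next paragraph.
Slc9a9: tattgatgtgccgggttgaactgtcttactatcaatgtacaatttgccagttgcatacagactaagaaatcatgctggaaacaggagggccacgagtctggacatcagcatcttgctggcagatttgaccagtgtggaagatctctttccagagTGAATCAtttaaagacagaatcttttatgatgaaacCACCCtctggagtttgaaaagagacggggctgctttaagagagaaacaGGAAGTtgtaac
Kcnj8: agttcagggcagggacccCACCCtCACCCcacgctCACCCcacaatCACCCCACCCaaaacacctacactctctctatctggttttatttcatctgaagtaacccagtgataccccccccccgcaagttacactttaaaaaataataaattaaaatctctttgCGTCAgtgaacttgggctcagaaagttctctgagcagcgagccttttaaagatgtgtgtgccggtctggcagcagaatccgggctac

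The motifs were chosen after these sequences had been seen. The core of the cyclic AMP response element was searched as TGACG, the AP-1 motif as TGANTCA, and the T-box motif, bound by T-bet and Eomes, as TCACAC. The RUNX motif was searched as TGTGGT and the ETS motif, of a large family of transcription factors, as GGAAGT. A box bound by Krüppel-like factors was searched as CACCC, the GATA motif, of another family, as AGATAA and the TATA box as TATAAA. The Slc9a9 window held 1 match each to the AP-1, CACCC and ETS motifs, which were present at least once in 6.75%, 52.0% and 19.7% of the 32851 RefSeq promoter windows of the same length. The Kcnj8 window held 5 matches to CACCC, none overlapping another, all on the strand shown and near the upstream end. A window with at least 5 matches to CACCC was found for 0.667% of the promoters. Kcnj8 also held 1 match to TGACG, on the opposite strand, and that motif occurred in 17.8% of windows. No motif but CACCC was matched in both windows. The letters of the T-box, RUNX, GATA and TATA motifs, found in 12.3%, 14.0%, 9.99% and 12.4% of all windows, were in neither. The base composition was 42.8% G and C upstream of Slc9a9 and 49.2% upstream of Kcnj8.

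The 9 arrays were close in overall signal, with median intensities from 56.6 to 59.1 in 8 arrays and 64.9 in bone marrow replicate 3. That array also had the lowest rank correlation with the other arrays of its group, 0.877 against 0.916 to 0.976 elsewhere. Among the NK markers, Nkg7 and Ncr1, picked after their values were seen, were bright in every group. Nkg7, a cytolytic granule protein, lay between 4287 and 5591 in all arrays, and Ncr1, the NK receptor NKp46, between 789 and 1842. Of 19 NK marker genes tested, 6 fell and none rose in NKDxIL15tg spleen against IL15tg spleen, where 12.5% of the 12925 genes tested were called and 4.87% fell. The median log2 difference of the NK markers was -0.24, and their summed intensity was 61962 to 64033 in IL15tg spleen, 45135 to 47342 in the spleen of NKDxIL15tg mice and 39130 to 43150 in their bone marrow. The 6 were the receptor genes Klrk1, Klrd1, Klre1, Fcgr3 and Il18rap and the transcription factor gene Tbx21. In bone marrow against IL15tg spleen 7 of the 19 fell and none rose, with a median of -0.46. In that comparison 20.2% of the 12925 genes were called and 8.7% fell. The tested set held 27022 probe sets, those with a mean over all arrays (in log2) at or above the 40th percentile, an intensity of 47.7. In sorted cells profiled in bulk, fewer cells expressing a gene and less RNA per cell cannot be told apart.

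Of the 7 probe sets of the 3 genes, 4 passed this filter: 1433719_at of Slc9a9, 1418142_at of Kcnj8 and both of AI504432. The other 3, all of Slc9a9, lay below it. The Slc9a9 probe set that passed did so through its IL15tg arrays, since its means in both NKDxIL15tg groups were under the filter intensity. For 1456064_at of AI504432 the NKDxIL15tg bone marrow mean, 28.4, was under that intensity too, and the NKDxIL15tg spleen mean, 50.3, was just above it.

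Kcnj8 was measured by its single probe set. Its intensity was 1380.0, 1364 and 1256 in IL15tg spleen, 199, 100.2 and 165 in NKDxIL15tg spleen, and 102, 85.5 and 100.5 in NKDxIL15tg bone marrow. The 3 IL15tg arrays stood far above the other 6, and NKDxIL15tg spleen replicate 1 was the highest of those 6. The means were 1333 ± 67.3, 155 ± 50.3 and 95.9 ± 8.97 (SD, n = 3 each). The difference of mean log2 intensity between NKDxIL15tg spleen and IL15tg spleen was -3.16 ± 0.22 (standard error), an 8.96-fold lower signal, and in NKDxIL15tg bone marrow against IL15tg spleen it was -3.80 ± 0.22, or 13.9-fold lower. These differences are descriptions and carry no test, since the first chose the gene and the second rests on the same IL15tg arrays.

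The Slc9a9 probe set 1433719_at, the brightest of its 4, read 416, 469 and 402 in IL15tg spleen, 50.0, 32.8 and 37.7 in NKDxIL15tg spleen and 27.0, 29.3 and 25.0 in NKDxIL15tg bone marrow. The 3 groups did not overlap, and the bone marrow arrays were the lowest. Group means were 429 ± 35.3, 40.2 ± 8.84 and 27.1 ± 2.14 (SD, n = 3 each). NKDxIL15tg spleen lay 10.8-fold below IL15tg spleen, a log2 difference of -3.44 ± 0.16, and NKDxIL15tg bone marrow lay 15.8-fold below it. All values of this probe set in the NKDxIL15tg groups but 1 were under the filter intensity.

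The 3 dimmer probe sets of Slc9a9 had their group means in the same order, each with a smaller difference. Probe set 1437488_at read 80.2, 63.6 and 106 in IL15tg spleen, 27.2, 23.8 and 23.8 in NKDxIL15tg spleen and 22.2, 19.0 and 29.9 in NKDxIL15tg bone marrow. Probe set 1454053_at read 78.8, 78.1 and 71.0 in IL15tg spleen, 34.3, 29.4 and 38.8 in NKDxIL15tg spleen and 43.0, 23.4 and 28.7 in NKDxIL15tg bone marrow. For 1447149_at the values were 33.4, 30.2 and 28.1, then 22.2, 17.3 and 25.8, then 21.6, 16.4 and 23.1. In each of these probe sets all 6 NKDxIL15tg arrays lay below all 3 IL15tg arrays. The log2 differences of NKDxIL15tg spleen from IL15tg spleen were -1.71 ± 0.22 for 1437488_at, -1.16 ± 0.22 for 1454053_at and -0.50 ± 0.18 for 1447149_at. Every value of these probe sets in both NKDxIL15tg groups was under the filter intensity of 47.7.

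AI504432 was measured by a pair of probe sets, both bright in IL15tg spleen. Probe set 1456064_at read 1082, 973 and 969 in IL15tg spleen, 50.9, 31.9 and 68.1 in NKDxIL15tg spleen and 23.0, 27.4 and 34.7 in NKDxIL15tg bone marrow. Its group means were 1008 ± 63.7, 50.3 ± 18.1 and 28.4 ± 5.90 (SD, n = 3 each), a 21.0-fold lower signal in NKDxIL15tg spleen than in IL15tg spleen. This was the greatest difference of the 7 probe sets, at -4.39 ± 0.26 on the log2 scale, and 36.0-fold lower in bone marrow. Probe set 1455161_at read 918, 679.7 and 810.5 in IL15tg spleen, 72.1, 45.8 and 88.9 in NKDxIL15tg spleen and 34.8, 45.7 and 80.3 in NKDxIL15tg bone marrow. The third bone marrow array lay apart from the other 2 and within the range of NKDxIL15tg spleen. NKDxIL15tg spleen was 12.0-fold and bone marrow 15.8-fold below IL15tg spleen by this probe set, a log2 difference of -3.98 in bone marrow that was -4.32 without the third array.

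**Figure D1:**
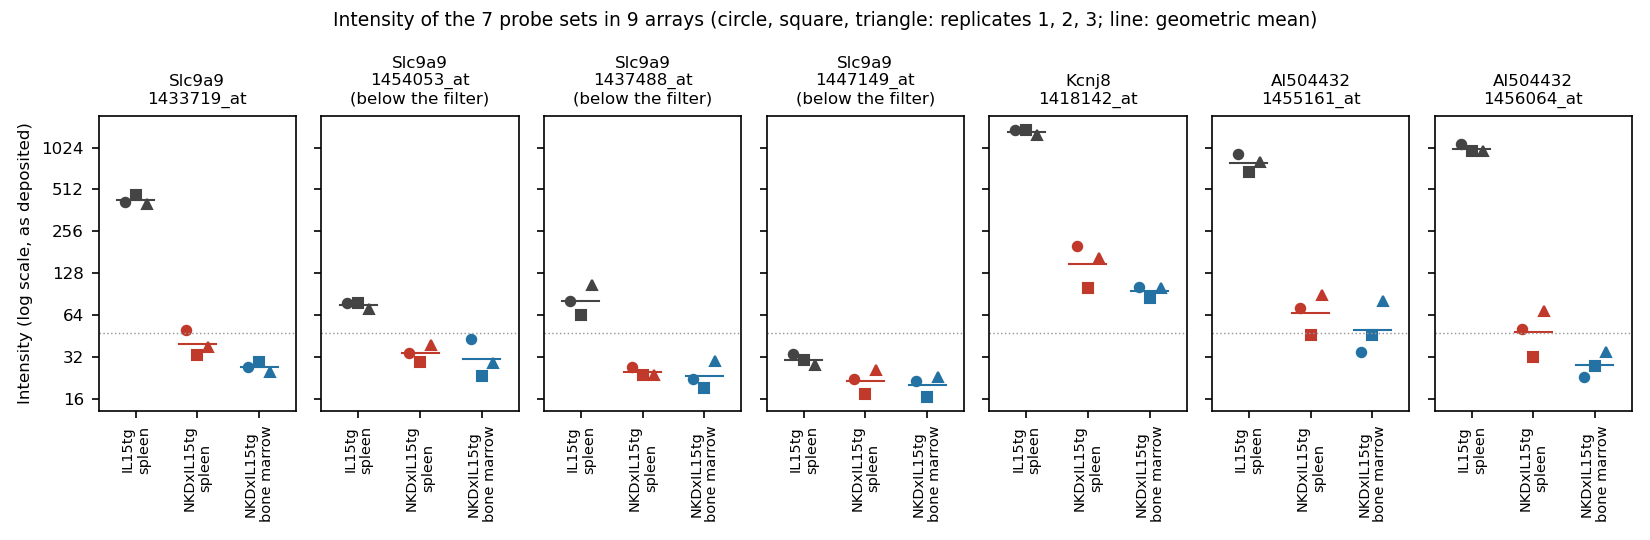
Deposited intensity (log axis) of the 7 probe sets of Slc9a9, Kcnj8 and AI504432 in each of the 9 arrays, with 1 symbol per replicate, a line at the geometric mean of each group and a dotted line at the filter intensity of 47.7. In every panel the 3 IL15tg spleen arrays lie above all 6 NKDxIL15tg arrays, and the 3 Slc9a9 probe sets below the filter start from lower IL15tg values.

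In all 7 probe sets the 3 NKDxIL15tg spleen arrays lay below the 3 IL15tg spleen arrays. Over all tested probe sets this held for 18.8%, and 13.8% were called different at an adjusted p under 0.05, but the 3 genes were chosen from this comparison, so their count is not read against it. The NKDxIL15tg bone marrow arrays also lay below those of IL15tg spleen in all 7. The share over all tested probe sets was 20.4%, and again nothing is read from it, since the IL15tg arrays had chosen the genes and 3 of the 7 probe sets were not in the tested set. In rank of the difference between the spleen groups, 4 tested probe sets lay below 1455161_at of AI504432, 1 of them its own 1456064_at, and 9 and 14 lay below Slc9a9 and Kcnj8. The genes named next are neighbours in the order of tested probe sets with 1 symbol alone. There 1456064_at stood between Cx3cr1, a chemokine receptor gene, at -4.66, and Ccl3, a chemokine gene, at -4.30. Slc9a9 stood between Ccl4 at -3.50 and Sgk1, a kinase that regulates ion transport, at -3.27. Kcnj8 stood between Ltb at -3.20 and Klrk1, the receptor NKG2D, at -3.09.

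The lowest of the 3 NKDxIL15tg spleen arrays was replicate 2 in 6 of the 7 probe sets. Over all tested probe sets replicate 2 was the lowest of the group in 39.0%. The part of this array in the low values of the 3 genes was not tested.

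The comparison of NKDxIL15tg bone marrow with NKDxIL15tg spleen was the one whose bone marrow arrays had not served to choose the genes. The NKDxIL15tg spleen arrays had, which qualifies the p-values here. By limma none of the 4 tested probe sets passed at an adjusted p under 0.05, and 0.0518% of all tested probe sets (14) did. All 4 had lower means in bone marrow. For Slc9a9 1433719_at the difference was -0.55 on the log2 scale (95% interval -0.91 to -0.19, adjusted p = 0.380 by limma), and the arrays of the groups did not overlap, as in 6.31% of all tested probe sets with bone marrow lower. For Kcnj8 it was -0.64 (interval -1.14 to -0.13, adjusted p = 0.450 by limma), with overlapping arrays. For AI504432 it was -0.78 by 1456064_at (interval -1.36 to -0.19, adjusted p = 0.432 by limma) and -0.40 by 1455161_at (interval -1.14 to 0.34, adjusted p = 0.584 by limma). The unadjusted p was under 0.05 for 3 of the 4, where it was for 10.4% of all tested probe sets, or 4.87% counting the lower ones alone. Nothing is read from that count, since the NKDxIL15tg spleen arrays had chosen the genes and Slc9a9 1433719_at was in the tested set through its IL15tg arrays. The same limit touches AI504432 1456064_at, whose bone marrow mean was under the filter intensity. With the replicate number as a block the calls over the whole array numbered 23 in place of 14, and the 4 probe sets remained without a call. For the 3 dim Slc9a9 probe sets the differences were -0.15, -0.10 and -0.09.

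**Figure D2:**
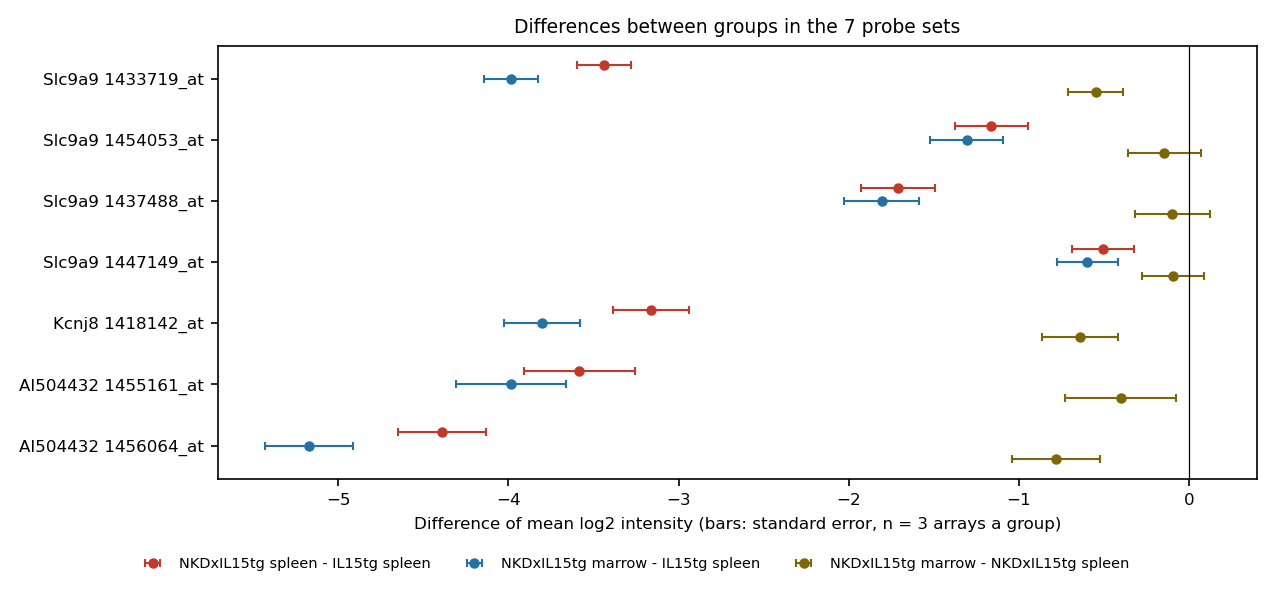
Differences of mean log2 intensity for the 7 probe sets, with bars of 1 standard error (n = 3 arrays a group): NKDxIL15tg spleen minus IL15tg spleen, NKDxIL15tg bone marrow minus IL15tg spleen, and NKDxIL15tg bone marrow minus NKDxIL15tg spleen. The first pair, which share the IL15tg arrays, run from -0.50 to -5.17, and the third runs from -0.09 to -0.78.

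No tested partner of Kcnj8 in the potassium channel fell between the spleen groups. Kcnj11 encodes Kir6.2, the other pore subunit, and read 417, 424 and 422 in IL15tg spleen, 574, 636 and 540 in NKDxIL15tg spleen and 698, 613 and 656 in bone marrow. All 6 NKDxIL15tg arrays lay above the IL15tg arrays, so that Kcnj11 was higher where Kcnj8 was lower. Kcnj11 rose by 0.47 ± 0.10 in NKDxIL15tg spleen against IL15tg spleen (adjusted p = 0.0192 by limma) and by 0.64 in bone marrow against IL15tg spleen (adjusted p = 0.0033 by limma). The first call was lost after quantile normalization or 75th-percentile scaling, without any 1 of the IL15tg replicates and without NKDxIL15tg spleen replicate 2, with an adjusted p of at most 0.0712, and the second held in all 17 alternatives. A second, dim probe set of Kcnj11 had means of 41.8, 37.0 and 39.1 and was not tested. Abcc9, which encodes the sulfonylurea receptor SUR2 and is the next gene to Kcnj8 on the chromosome, had means of 64.7, 65.2 and 72.9, a difference of 0.01 ± 0.12 between the spleen groups (adjusted p = 0.975 by limma). Abcc8, which encodes SUR1, had means of 43.7, 42.1 and 43.8 and lay below the filter. The signal of both receptor genes was thus near the filter intensity in all groups, including IL15tg spleen, where Kcnj8 was bright.

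Of 9 tested genes of inward rectifiers and sulfonylurea receptors other than Kcnj8, 1 rose and 1 fell between the spleen groups, with a median log2 difference of -0.06 against 0.02 over the 12925 genes tested, of which 12.5% were called, 7.65% higher and 4.87% lower. The one that fell was Kcnj1, the renal channel ROMK, by 0.72 ± 0.19 (adjusted p = 0.0334 by limma), a call lost in 6 of 17 alternatives. Among 39 other tested genes with potassium channel symbols, 2 rose and 2 fell, with a median of 0.05. Kcnk5, a background potassium channel, rose from 102 to 198, and Kcnab2, a channel beta subunit, fell by 0.61 ± 0.11 (adjusted p = 0.0071 by limma), both in all 17 alternatives. Kcnip3, a calcium sensor that binds channels, rose by 0.74 ± 0.15 (adjusted p = 0.0136 by limma), a call lost without IL15tg replicate 1 or 2. Kcnq5 fell by 1.15 ± 0.28 (adjusted p = 0.0270 by limma), but a second probe set of it differed by -0.06 and the call was lost in 6 of 17 alternatives. Kcna3 and Kcnn4 encode the potassium channels best known in lymphocytes. Kcna3 read 44.4, 44.0 and 40.8 in IL15tg spleen and 39.6, 49.7 and 47.4 in NKDxIL15tg spleen, below the filter. Kcnn4 differed by 0.34 and did not pass (adjusted p = 0.259 by limma), while its 2 probe sets disagreed in sign in bone marrow against IL15tg spleen.

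Of the sodium/proton exchangers and their regulators, 8 genes other than Slc9a9 were tested. Between the spleen groups 1 fell, none rose, and the median log2 difference was -0.28. The gene that fell was Tesc, tescalcin, a calcium-binding regulator of an exchanger at the cell surface, by 0.97 ± 0.20 (adjusted p = 0.0155 by limma). That call was lost with a floor of 64, without IL15tg replicate 2 or 3 and without NKDxIL15tg spleen replicate 1 or 2. Slc9a7, which encodes NHE7, an exchanger of the trans-Golgi network and endosomes, had means of 346, 206 and 98.8 in the order IL15tg spleen, NKDxIL15tg spleen, bone marrow. Its difference of -0.80 ± 0.28 between the spleen groups did not pass (adjusted p = 0.0951 by limma) but did with the replicate block (adjusted p = 0.0376 by limma). In bone marrow against IL15tg spleen Slc9a7 fell by 1.85 ± 0.28 (adjusted p = 0.0022 by limma), in all 17 alternatives. In that comparison 1 of the 8 rose and 2 fell, where 20.2% of all genes tested were called, 11.5% higher and 8.7% lower. Rack1 was not analysed here.

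Among genes of pH and ion transport, in endosomes and elsewhere in the cell, the shares called between the spleen groups were near the 12.5% of all genes tested. Of 20 tested V-ATPase subunit genes, 2 rose and 1 fell between the spleen groups, with a median of -0.03. Atp6v0a2, a membrane subunit, rose by 0.88 ± 0.17 (adjusted p = 0.0116 by limma) and Atp6v1a, the catalytic subunit, by 0.54 ± 0.11 (adjusted p = 0.0111 by limma). Atp6v1h fell by 1.11 ± 0.25 (adjusted p = 0.0192 by limma), though its second probe set had a difference of 0.41. Of 12 tested channels of endosomes and lysosomes 2 fell and none rose, with a median of -0.18. Mcoln2, a cation channel of recycling endosomes, fell from 153 to 67.2 (adjusted p = 0.0046 by limma), in all 17 alternatives, and Clcn3, a chloride/proton exchanger, by 0.74 ± 0.19 (adjusted p = 0.0362 by limma), lost in 8 of 17. Of 16 tested genes listed with pumps and transporters of sodium, potassium and protons, 2 rose and none fell, with a median of -0.07. Car2, carbonic anhydrase, an enzyme and not itself a transporter, rose by 2.32 ± 0.14 in all 17 alternatives. Slc16a1, a lactate and proton carrier, rose by 1.46 ± 0.34 (adjusted p = 0.0216 by limma), a call lost in 5 of 17. In bone marrow against NKDxIL15tg spleen no gene of these 6 lists passed by limma, and 0.0696% of all genes tested did. At an unadjusted p under 0.05 there were 2 of 8 exchangers and regulators, 4 of 20 V-ATPase genes, 3 of 12 endosomal channels, 1 of 16 pumps and transporters, 0 of 9 inward rectifiers and 6 of 39 other potassium channel genes, against 10.9% of all genes tested.

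**Figure D3:**
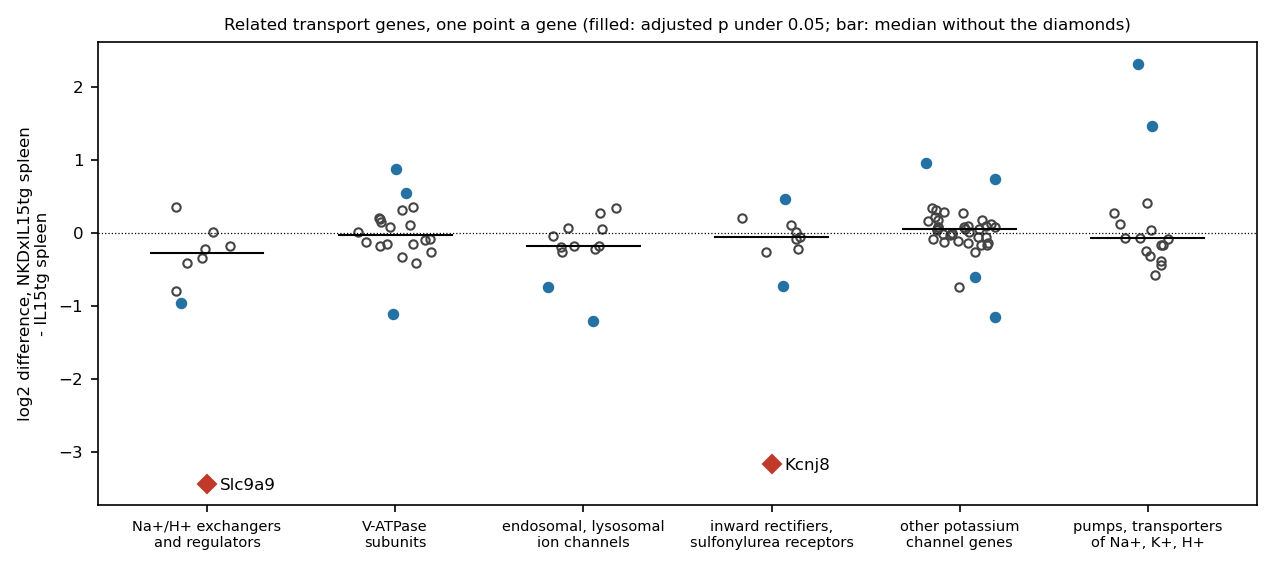
Log2 difference of NKDxIL15tg spleen from IL15tg spleen for the tested genes of 6 ion transport lists, 1 point a gene, filled where the adjusted p was under 0.05, with a bar at each list's median. Slc9a9 and Kcnj8 (diamonds, left out of the medians) lie at -3.44 and -3.16, below every other gene drawn, and the list medians lie between -0.28 and 0.05.

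The nearest tested genes on the same chromosomes had no difference of like size between the spleen groups. The 4 nearest tested genes on each side were taken from the gene order of the reference assembly. They lay from 1 gene away (Abcc9, from Kcnj8) to 27 genes away (Plscr1, from Slc9a9). The other genes between had no tested probe set and were not measured here. Gm38712, which overlaps AI504432, had no probe set of its own. Around Slc9a9 on chromosome 9, 2 of the 8 rose and none fell between the spleen groups. Over the 24 neighbours of the 3 genes 4 rose and 1 fell, and over all genes tested 7.65% rose and 4.87% fell (12.5% called). Plscr1, a phospholipid scramblase gene induced by interferon, rose from 478 to 1539 (1.68 ± 0.16, adjusted p = 0.000261 by limma), and Chst2, a sulfotransferase gene, rose from 67.8 to 166 (adjusted p = 0.00375 by limma), both in all 17 alternatives. The other 6 neighbours of Slc9a9 had differences from -0.23 for Dipk2a to 0.56 for Plod2. In bone marrow against IL15tg spleen, 2 of these 8 rose and 1 fell, and that was Dipk2a, by 0.75 (adjusted p = 0.0109 by limma).

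Around Kcnj8 on chromosome 6 the 8 neighbours had differences from -0.21 for Pyroxd1 to 0.35 for Cmas, with a median of 0.02. Cmas, which activates sialic acid, was the 1 that passed, with an adjusted p of 0.0453 by limma, and with the replicate block its adjusted p was 0.0565. Around AI504432 on chromosome 3, 1 of the 8 rose and 1 fell. Dram2, a gene of autophagy, rose by 0.94 ± 0.13 (adjusted p = 0.00206 by limma), and Cym, a protease gene, fell by 0.93 ± 0.13 (adjusted p = 0.00181 by limma), both in all 17 alternatives. Kcna3, the gene immediately beside AI504432, had means of 43.1, 45.6 and 41.5 in the 3 groups and was below the filter. On the other side the nearest tested gene was Kcna2, also a potassium channel gene, which differed by 0.00. Cd53, a leukocyte tetraspanin gene and the nearest tested gene on the side of Kcna3, differed by 0.19. In bone marrow against IL15tg spleen 1 neighbour of Kcnj8 fell, and 1 of AI504432 rose and 3 fell, where 20.2% of all genes tested were called. In bone marrow against NKDxIL15tg spleen none of the 24 neighbours passed.

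**Figure D4:**
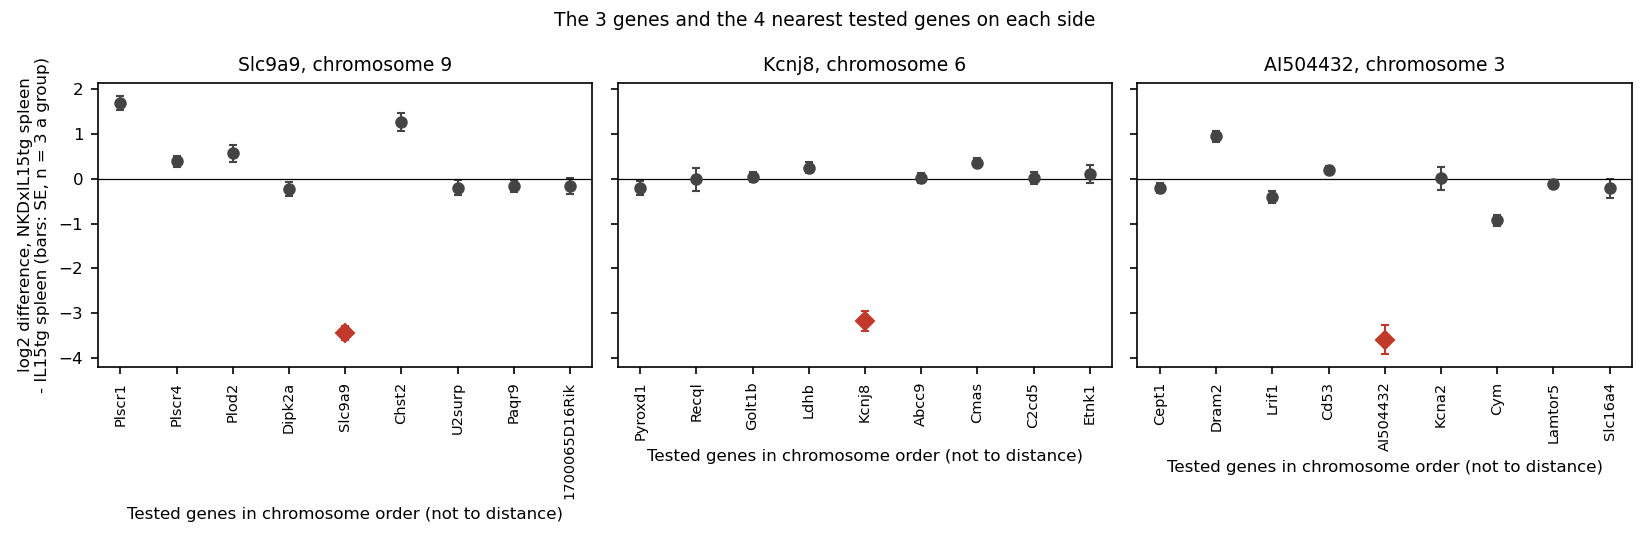
Log2 difference of NKDxIL15tg spleen from IL15tg spleen, with bars of 1 standard error (n = 3 arrays a group), for each of the 3 genes (diamonds; AI504432 by 1455161_at) and the 4 nearest tested genes on each side in chromosome order. The diamonds lie between -3.16 and -3.58, and the neighbours between -0.93 and 1.68.

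Other genes followed the same pattern over the arrays. For the brightest probe set of each of the 3 genes, the 5 other genes with the highest Pearson correlation of log2 intensity over the 9 arrays were listed as a description. All of these correlations are dominated by the separation of the groups, which the points share. Nearest to Slc9a9 were Gpc1 (r = 0.996), Borcs7, Itgam, Kcnj8 (r = 0.994) and Sgk1. Gpc1, a cell-surface proteoglycan gene, had means of 267, 62.9 and 49.2 in the 3 groups. Nearest to Kcnj8 were Pank1 (r = 0.995), Il7r, Ube2j2, Slc9a9 and Zeb2. Pank1, of coenzyme A synthesis, had means of 278, 52.0 and 35.6. Nearest to AI504432 were Rlf (r = 0.996), Gpr137b, Camk1d, Zmiz1 and Raph1, and Camk1d, a calcium-dependent kinase gene, had means of 383, 58.7 and 45.4. Slc9a9 and Kcnj8 were each in the other's list, and AI504432 was in neither. Its probe set 1456064_at was close, with r = 0.993 with Kcnj8 and 0.990 with Slc9a9, where the fifth places were at 0.994 and 0.993.

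Markers of other cells were set beside the 3 genes. Kcnj8 is a marker of pericytes. None of 6 tested pericyte and smooth muscle genes passed between any of the groups. The summed intensity of the 12 genes on the array was 716 to 786 in IL15tg spleen, 673 to 760 in NKDxIL15tg spleen and 705 to 796 in bone marrow. None of 3 tested endothelial genes passed either, with sums of 436 to 454, 448 to 479 and 456 to 490. The sums overlapped between groups, except that the endothelial sums of bone marrow lay just above those of IL15tg spleen. The genes of these lists that were not tested lay below the filter, so the sums rest in part on dim signal. Of the B cell markers 5 of 10 tested genes fell between the spleen groups and none rose, with a median log2 difference of -0.45. Of the macrophage and dendritic cell markers 4 of 13 fell and none rose, while the list's median was 0.03. Over all genes tested 4.87% fell and 7.65% rose, with a median of 0.02. Their summed intensities were 3263 to 5896, 2534 to 2828 and 1646 to 2174 for macrophage and dendritic genes and 1805 to 2484, 1379 to 1492 and 1226 to 3178 for B cell genes, in the order of the groups above. Of the granulocyte and monocyte markers 6 of 13 rose and none fell, with a median of 1.30. In bone marrow against IL15tg spleen 12 of these 13 rose, with a median of 4.26, where 11.5% of all genes tested rose. In bone marrow against NKDxIL15tg spleen 3 of them rose, with a median of 2.28, and 2 of the 10 B cell markers fell. There 0.0696% of all genes tested were called. Between the spleen groups 1 of 9 T cell and 1 of 8 erythroid markers rose and none fell, with medians of 0.05 and 0.26. These shares were near the 12.5% of all genes called. The T cell gene that rose was Cd28 (adjusted p = 6.8e-05 by limma), and the other 8 tested did not pass. Granulocyte and monocyte sums were 3774 to 4017, 6581 to 11307 and 15152 to 34737, those of T cells 1693 to 1832, 3060 to 3507 and 2734 to 3649, and those of erythroid cells 555 to 585, 736 to 1153 and 835 to 1205. Bone marrow replicate 3 had the highest bone marrow sum for the B cell, macrophage and dendritic, granulocyte and monocyte, T cell and erythroid lists. Its B cell sum was 3178, while the other bone marrow arrays were at 1226 and 1297, below every IL15tg array. Its granulocyte and monocyte sum was 34737, against 15152 and 22158. No marker was at 0 in any array. The part of these other cells in the low values of Slc9a9, Kcnj8 and AI504432 was not tested.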

How the data were processed

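The values are probe set intensities on a linear scale, deposited by the authors in the series matrix. The summary method and scaling behind them are not given in the sources used here. No rescaling was applied, since array medians of log2 intensity differed by 0.197. Intensities under 16 (4.36% of values) were set to 16 and log2 was taken. The 64 control probe sets were left out. Group means of all 9 arrays were fitted with limma 3.58.1 in R 4.3.3 (2-sided, Benjamini-Hochberg over 27022 probe sets, threshold 0.05), after the fit was checked on simulated data. Fold differences are on the log2 scale of these floored intensities. Probe sets were named through GEO's platform annotation: 34945 had 1 symbol, 932 several and 9160 none. Each listed gene was represented by its brightest probe set with 1 symbol.

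The 3 genes and the lists were chosen with earlier results of these data known. Named genes were all probe sets of the 3 genes, up to 4 called genes of a list with the greatest change, known partners, the 4 nearest tested neighbours on each side and the 5 genes most alike. The genes beside the 3 in rank and Nkg7 and Ncr1 among the markers were named after their values were seen. Same-numbered arrays deviated together in the NKDxIL15tg groups (r = 0.379, 0.258 and 0.228), where all differently numbered pairs were negative. In the 2 spleen groups same-numbered pairs were at 0.163, 0.156 and 0.123, but differently numbered pairs ran from -0.319 to 0.155. For bone marrow and IL15tg spleen same-numbered pairs ran from -0.0236 to 0.242, and a differently numbered pair reached 0.267. The main fit did not pair the arrays, and the replicate number entered only as a block in an alternative. Beyond the labels, nothing says that replicates came from separate mice, and p-values measure the spread between these arrays. The precision is limited by 3 arrays a group. Alternatives were quantile normalization, scaling to the 75th percentile, floors of 64 and 4, no filter, the replicate block, array weights, the 6 arrays of a comparison alone and each array left out.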

Additional observations from a re-analysis of the deposited data

How the results depend on the processing

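Under all 17 alternatives Slc9a9, Kcnj8 and AI504432 kept their direction in both comparisons with IL15tg spleen, and none of their tested probe sets passed in bone marrow against NKDxIL15tg spleen. The genes were chosen for that direction and their arrays did not overlap with those of IL15tg spleen, so leaving out an array could not reverse it. A floor of 64, which raises the low arrays, gave -2.74 for Slc9a9 in each comparison with IL15tg spleen. It set every NKDxIL15tg value of that probe set to 64, so those 2 groups could not differ there. Counts of probe sets called moved more. For NKDxIL15tg spleen against IL15tg spleen they were 3725, 2102 with a floor of 64, 5685 with array weights and 1809 to 5483 with 1 array left out (leaving out IL15tg replicate 1, 2 or 3 gave 1809, 1812 or 2070, and NKDxIL15tg spleen replicate 2 gave 2112). For bone marrow against NKDxIL15tg spleen they were 14, 5 with a floor of 64, 2 without the filter, 23 with the replicate block and 1 to 15 with 1 array left out (1 and 4 without NKDxIL15tg spleen replicates 1 and 3, and 4 without bone marrow replicate 2). For bone marrow against IL15tg spleen they were 5764, 3466 with a floor of 64 and 3089 to 6342 with 1 array left out (3089 and 3480 without IL15tg replicates 1 and 2). Beside the counts, the replicate block changed the printed calls of Slc9a7 and Cmas, given with their values, and no other printed call of a named gene. Signal near the floor limits how low the NKDxIL15tg groups can be read.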
